A study of Mus musculus with 10 samples.

Results

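The brush border is the carpet of microvilli on the apical face of intestinal epithelial cells. Here 7 genes that build it (Vil1, Ezr, Myo1a, Myo7b, Espn, Pls1 and Eps8l3) and the keratin gene Krt20 were followed across sorted crypt cells of the mouse. The members were taken by name from the count tables, which hold 33643 row names known to the annotation of the mouse genome, and all 8 were found and all 8 passed the filter on low counts that left 13706 genes for testing. The mice were EF1a-OSCAR animals of strain C57BL6/J, in which a reporter of the kinase CDK9 (VeN90, a Venus protein that loses fluorescence when phosphorylated, with mCherry as the reference) was knocked into Rosa26 behind the EF1a promoter, and its stop cassette was removed by Vasa-Cre, which acts in germ cells, so that all tissues carry it. Live EpCAM+ cells of small intestinal crypts were sorted into 5 gates, 10000 cells each, and poly-A RNA was sequenced from 2 replicates of each gate, 10 libraries in all, with no age given in the labels. P1 is OSCARlow EF1alow, P2 is OSCARhigh EF1alow, P3 is OSCARlow EF1ahigh, P4 is OSCARmed EF1alow and P5 is OSCARmed EF1ahigh, where a high OSCAR ratio stands for low CDK9 activity and EF1a level for the general expression of the transgene. The gates are fluorescence windows of a mixed epithelium and were not drawn on any of these genes.

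A microvillus holds a core of parallel actin filaments, crosslinked by villin, fimbrin and espin, tied to the membrane along its sides by class I myosin and ezrin, and joined to its neighbours at the tips by protocadherin links. Its filaments are rooted in a terminal web of spectrin, myosin and keratin filaments. Cells that leave the crypt lengthen and pack their microvilli as they become enterocytes, tuft cells carry a tall bundle of their own, and Krt20 is an intermediate filament gene used as a marker of differentiated cells of the gut surface and villus.

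Each library held between 3857612 and 6485823 counts on genes, and 3 counts, taken as the smallest detectable level, correspond to between 4.63e-05% and 7.78e-05% of a library, which covers counting error only. The libraries labelled P3 stood apart, with 58.6% and 35.5% of their counts (rRNA genes removed) on mitochondrial genes against 1.02% to 4.99% in the other 8. Replicates of every population differed by far more than sampling noise, with a chi-square per degree of freedom of 19.7 to 62.1, as separate preparations of a single sample could also do. The deposited labels of P2 and P3 conflict with the study's own account of which gate holds the secretory markers and Krt19, so these samples are called the libraries labelled P2 and P3, and none was renamed. The study calls its replicates biological, but the labels name no animal for any of them, so p-values measure only the spread between these samples, which may be technical.

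Levels are given as CPM, counts scaled to the effective library size. Epithelial identity was checked first. All 4 epithelial markers (Epcam, Cdh1, Cldn7 and Krt8) had counts in all 10 libraries, with summed levels between 2190 and 5936 CPM. Of 8 markers of stroma and muscle, only Vim and Pecam1 passed the filter, and the list summed to at most 53.5 CPM (P2 replicate 2), with Col3a1 and Des at 0 in most libraries. All 11 enterocyte markers had counts in every library, and for replicates 1 and 2 they summed to 38696 and 29075 CPM in P1, 1819 and 3693 in the libraries labelled P2, 28540 and 8180 in those labelled P3, and then 12269 and 4222 (P4) and 20897 and 8435 (P5). Fabp2 was the most abundant in P1, at 17931 and 16605 CPM, and Sis in P3, P4 and P5. Enterocyte marker RNA was thus present in all gates, and the libraries labelled P2 held the least.

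Markers of other cells also differed between gates. The 8 Paneth markers, led by Lyz1, summed to 573406 and 403277 CPM in the libraries labelled P2 and 19929 and 63475 CPM in P1, against 512 to 10988 CPM in the other 6 libraries. The 12 tuft markers, led by Cd24a, reached 3829 and 3920 CPM in the libraries labelled P2, where Cd24a alone made up 2933 and 2372 CPM. They stayed between 178 and 529 CPM elsewhere, with Pou2f3 at 0 in both libraries labelled P3. Goblet markers (8, led by Fcgbp) summed to 56065 and 125373 CPM and enteroendocrine markers (9, led by Gip) to 4773 and 11533 CPM in the libraries labelled P2, each above the rest. Stem markers (7, led by Olfm4) were highest in P4 and P5, at 4260 to 7123 CPM, and proliferation markers (7) ran from 241 CPM in P2 replicate 2 to 1893 CPM in P5 replicate 2. Leukocyte markers (8) summed to 941 and 658 CPM in P1, with Gzma at 392 CPM in replicate 1 and Cd74 at 398 CPM in replicate 2, and to 18.9 to 240 CPM elsewhere, with Cd3e at 0 in 6 libraries. In such bulk samples, fewer cells of a type and less RNA per cell cannot be told apart.

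**Figure D1:**
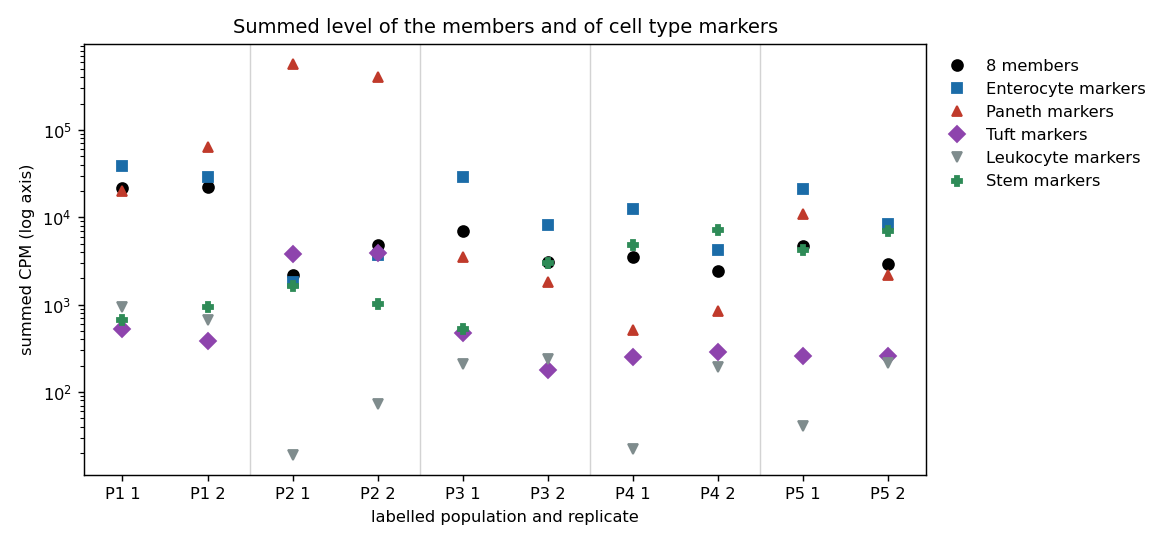
Summed CPM (log axis) of the 8 members and of 5 cell type marker lists in each library, by labelled population and replicate. The members sum to 21499 and 22462 CPM in P1 and to between 2206 and 6979 CPM elsewhere, while the Paneth and tuft lists peak in the libraries labelled P2.

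All 8 genes were highest in P1, and for all 8 both P1 libraries lay above the other 8 libraries, as they did for 20.9% of all genes tested. Together the members took 2.03% and 2.13% of the counts in P1 and between 0.151% and 0.635% in the other libraries. These shares are of all counts without rRNA genes, mitochondrial genes included. Mitochondrial genes held 58.6% and 35.5% of that total in the libraries labelled P3, which lowers the members' share there. Beyond P1, the order of the populations changed from gene to gene and neighbours in it mostly overlapped. Of the 8 genes, 6 differed among the 5 populations by the quasi-likelihood test of edgeR (Benjamini-Hochberg adjusted p under 0.01), where 36.3% of all genes did. Without P1 replicate 1 or without P1 replicate 2 the count was 3, and without both libraries labelled P3 it was 7, and the whole table moved alike, with 2657 of 14406, 2870 of 14463 and 6533 of 13583 genes called.

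**Figure D2:**
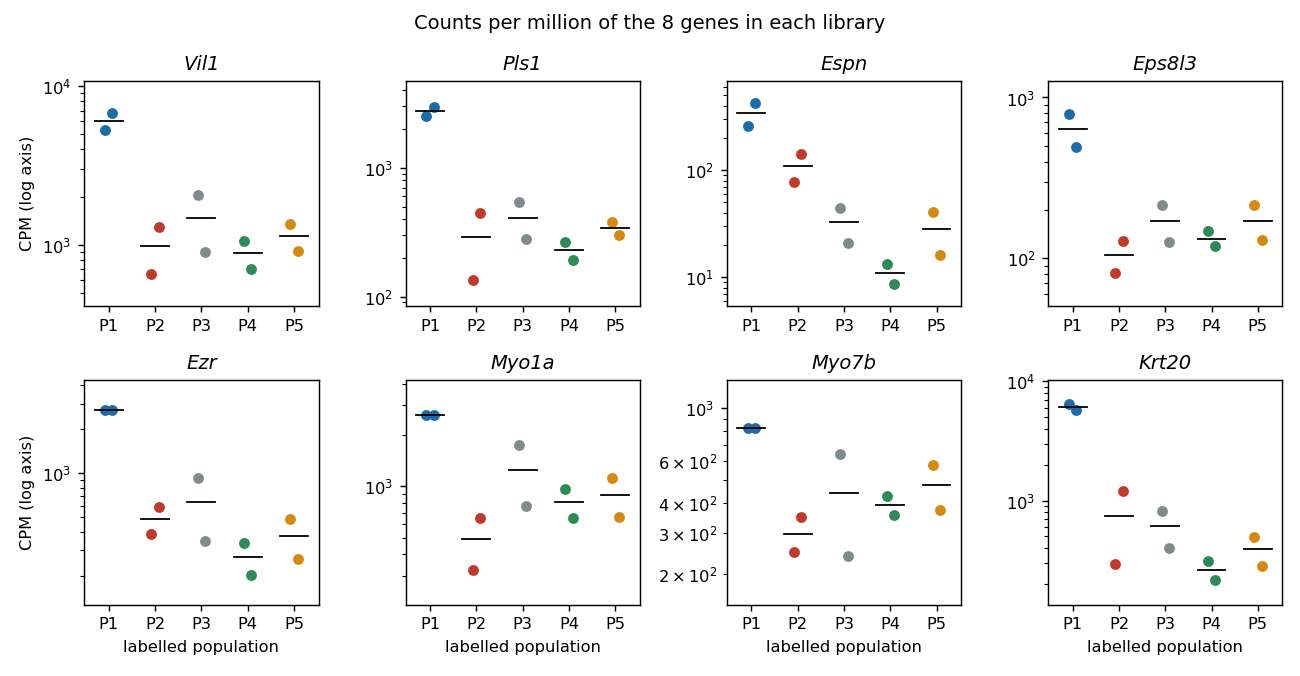
CPM (log axis, scaled per gene) of each gene in the 10 libraries by labelled population. Points are libraries, lines the means of 2. The P1 points lie above all others for every gene, and Espn in the libraries labelled P2 lies above P3, P4 and P5. The share of all genes with that place of P2 was not counted.

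The bundling proteins of the core came first. Vil1 (chr1:74455950-74482133 in NCBIM37, plus strand) encodes villin, which bundles actin and can sever it. Its levels for replicates 1 and 2 were 5311 and 6718 CPM in P1, 657 and 1303 in the libraries labelled P2, 2044 and 902 in those labelled P3, and then 1063 and 708 (P4) and 1354 and 911 (P5). P1 was high, and the other 4 populations overlapped one after the other down the order P3, P5, P2 and P4. Vil1 was higher in P1 than in P2 by 2.62 on the log2 scale (SE 0.54, edgeR adjusted p = 0.00418) and than in P4 by 2.76 (SE 0.54, adjusted p = 0.00423), and the difference from P3, 2.03 (SE 0.53), had an adjusted p of 0.0175. In a fit to P1 and P2 alone the adjusted p of Vil1 between them was 0.0127 with edgeR, above the threshold.

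Pls1 (chr9:95653061-95745730, minus strand) encodes plastin-1, also called I-plastin or fimbrin, the second bundler of the core. It stood at 2548 and 2952 CPM in P1, 135 and 449.6 in the libraries labelled P2, 542 and 281 in those labelled P3, and then 267 and 194 (P4) and 381 and 303 (P5). The libraries labelled P2 were 3.34-fold apart and overlapped P3, P4 and P5, while P4 lay below P5 and P3, which overlapped each other. Pls1 rose in P1 by 3.23 over P2 (SE 0.58, edgeR adjusted p = 0.00208), by 3.58 over P4 (SE 0.59, adjusted p = 0.00209) and by 2.74 over P3 (SE 0.56, adjusted p = 0.00689). Its difference from P2 was 2.60 without P2 replicate 1 and 4.34 without P2 replicate 2. The log2 CPM of Pls1 followed that of Vil1 more closely than any other pair among the members over the 10 libraries (Pearson r = 0.989). Over the 8 libraries without P1 the r of that pair was 0.933, and that of Myo1a with Eps8l3 was higher, at 0.955.

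Espn (chr4:151494440-151526480, minus strand) encodes espin, a bundler that lengthens parallel actin bundles in microvilli and hair cell stereocilia. Its levels were 259.7 and 424 CPM in P1, 78.0 and 141 in the libraries labelled P2, 44.1 and 21.1 in those labelled P3, and then 13.4 and 8.63 (P4) and 40.3 and 16.2 (P5). For Espn, unlike the other 7 genes, the libraries labelled P2 lay below P1 and above all 6 others. P4 lay below P5 and P3, which overlapped. The share of all genes in which the libraries labelled P2 take that place was not counted, so it is a description only. Espn was higher in P1 than in P4 by 4.96 (SE 0.59, edgeR adjusted p = 0.00091), a 31.1-fold ratio of mean CPM, and than in P3 by 3.43 (SE 0.56, adjusted p = 0.00293), whereas its excess over P2 was 1.64 (SE 0.51, adjusted p = 0.0265). P4 was lower than P2 by 3.32 (log2 fold change -3.32, SE 0.56, adjusted p = 0.00293), and Espn was the only member called between those gates, of 8, where 14.3% of all genes were called. That call was lost without P2 replicate 2 and without either P4 library, when 0 members and 588, 393 and 320 genes were called. The libraries labelled P2 also held the tuft, Paneth, goblet and enteroendocrine markers given above, whose part in the level of Espn was not tested.

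The contrast of Espn with villin can be read within each library. The Espn level as a share of the Vil1 level was 0.0489 and 0.0632 in P1, 0.119 and 0.109 in the libraries labelled P2, and 0.0122 to 0.0298 in the other 6. The 3 ranges did not overlap, which is a description only, since such ranges were not counted over other genes. Over the 8 libraries outside P1, Espn had a correlation of 0.339 with Vil1, 0.759 with Krt20 and -0.166 with Myo1a in log2 CPM, given as a description of libraries that share their gates.

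Eps8l3 (chr3:107680148-107695817, plus strand) belongs to the Eps8 family, of which Eps8 itself caps actin filaments at microvillar tips. It was counted at 791 and 490.5 CPM in P1, 80.8 and 128 in the libraries labelled P2, 215 and 126 in those labelled P3, and then 147 and 119 (P4) and 214 and 129.6 (P5). P1 was high, and the remaining populations overlapped along the order P5, P3, P4 and P2. The excess of P1 was 2.62 over P2 (SE 0.41, edgeR adjusted p = 0.00115), 2.27 over P4 (SE 0.40, adjusted p = 0.00282) and 1.91 over P3 (SE 0.40, adjusted p = 0.00731). A lincRNA gene on the opposite strand, 4933431E20Rik, shares 963 exonic bases with Eps8l3, 42.4% of its exons, and reads lying wholly there were assigned to neither gene, so the level of Eps8l3 is understated.

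**Figure D3:**
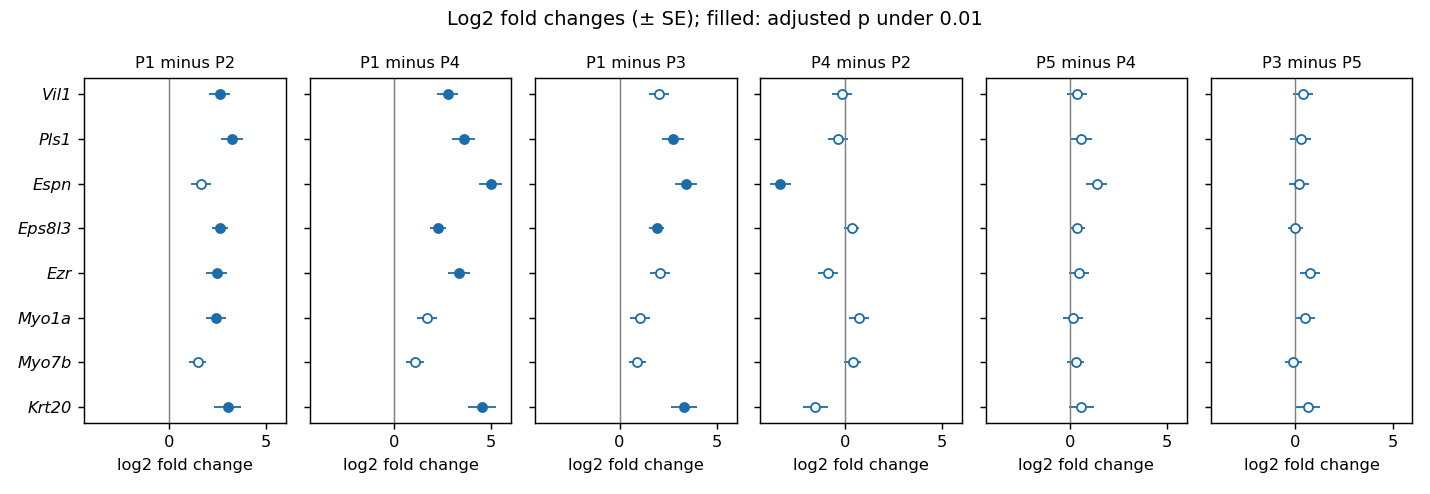
Log2 fold changes between pairs of gates (x axis, first minus second) with their standard errors for the 8 genes, fitted over the 10 libraries; filled points have an adjusted p under 0.01. The 3 comparisons with P1 lie to the right of 0 for every gene, and Espn is the only filled point between P4 and P2.

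The genes that link the core to the membrane came next. Ezr (chr17:6942390-6987133, minus strand) encodes ezrin, which tethers actin to membrane proteins once phosphorylated. It stood at 2703 and 2728 CPM in P1, 388 and 589 in the libraries labelled P2, 934 and 343 in those labelled P3, and then 335 and 203 (P4) and 488 and 260.2 (P5). P1 was high and the other populations formed an overlapping run from P3 over P2 and P5 to P4. Ezr was higher in P1 than in P2 by 2.47 (SE 0.54, edgeR adjusted p = 0.00547) and than in P4 by 3.34 (SE 0.56, adjusted p = 0.00228). The difference from P3 was 2.09 (SE 0.53, adjusted p = 0.0161). With the replicate number as a block in the fit it was 2.21 (edgeR adjusted p = 0.00789), under the threshold. Leukocytes also express ERM proteins, and although the cells were sorted as live and EpCAM+, the leukocyte markers were highest in the same P1 libraries. The part of such cells in the level of Ezr was not tested.

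Myo1a (chr10:127142226-127157943, plus strand) encodes the short-tailed class I myosin that bridges the core bundle to the membrane. Its levels were 2636 and 2617 CPM in P1, 324 and 656 in the libraries labelled P2, 1741 and 768 in those labelled P3, and then 963 and 653 (P4) and 1121 and 662 (P5). P1 lay above the rest, P3 replicate 1 came nearest to it, and the libraries labelled P2 were lowest on average but overlapped P4. The difference from P2 was 2.42 (SE 0.52, edgeR adjusted p = 0.00523), or 3.01 without P2 replicate 2, and those from P4, 1.70 (SE 0.51, adjusted p = 0.0253), and P3, 1.07 (SE 0.50, adjusted p = 0.131), did not pass.

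Myo7b (chr18:32118888-32196615, minus strand) encodes the tip-link myosin that carries the scaffold of the intermicrovillar protocadherins. It was counted at 825 and 824 CPM in P1, 247 and 347 in the libraries labelled P2, 640.2 and 238 in those labelled P3, and then 428 and 356 (P4) and 575 and 374 (P5). The P1 libraries were again above the others, by the smallest margin of the 8 genes when taken as a ratio. P4 lay just above the libraries labelled P2 without overlapping them. No comparison of Myo7b passed the threshold, with differences of 1.47 between P1 and P2 (SE 0.45, edgeR adjusted p = 0.0234), 1.07 between P1 and P4 (SE 0.44, adjusted p = 0.0772) and 0.91 between P1 and P3 (SE 0.44, adjusted p = 0.14).

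Krt20 (chr11:99289717-99299464, minus strand) is not a microvillar gene but encodes a type I keratin of the filaments below the brush border. Its levels were 6426 and 5708 CPM in P1, 296 and 1199 in the libraries labelled P2, 819 and 399 in those labelled P3, and then 309.8 and 214 (P4) and 499 and 282 (P5). P1 was far above the rest, and the libraries labelled P2, 4.05-fold apart, overlapped P3, P5 and P4. Krt20 rose in P1 by 3.02 over P2 (SE 0.68, edgeR adjusted p = 0.00623), by 4.53 over P4 (SE 0.73, adjusted p = 0.00197) and by 3.32 over P3 (SE 0.69, adjusted p = 0.00707). The difference from P2 was 2.33 without P2 replicate 1 and 4.35 without P2 replicate 2. In a fit to P1 and P2 alone the adjusted p of Krt20 between them was 0.0179 with edgeR, above the threshold. With 23.1-fold between P1 and P4 it had the widest range after Espn. Krt20 stood at 1.21 and 0.85 of the Vil1 CPM in P1 and at 0.921 in P2 replicate 2, against 0.291 to 0.451 in the other 7 libraries.

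Levels of different genes were compared per kilobase of exon. In P1, Krt20 reached 3148 ± 263 CPM per kilobase (SD, n = 2), Vil1 1694 ± 280, Ezr 825 ± 5.23, Myo1a 776 ± 3.96, Pls1 707 ± 73.6, Eps8l3 282 ± 93.6, Myo7b 125 ± 0.127 and Espn 57.2 ± 19.5. Krt20 ranked 12 and 16 and Vil1 27 and 26 among the 13639 tested genes with a length in the P1 libraries. In P4 the order differed, with Vil1 (249 ± 70.8 CPM per kilobase) and Myo1a (239 ± 64.7) above Krt20 (136 ± 35.0), and Pls1 (59.2 ± 13.2) and Myo7b (59.2 ± 7.69) within each other's spread. The place of Eps8l3 depends on the exonic bases it shares, since its P4 level was 58.5 ± 8.81 over all exons and 102 ± 15.3 over the 1306 bases shared with no other gene, a length chosen after seeing the data. Espn was lowest in all 5 populations. Its exon length rests on 20 annotated transcripts, and with the longest transcript in place of all exons its P1 level was 95.1 CPM per kilobase, still the lowest of the 8.

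By their labels P1 and P2 differ in OSCAR at low EF1a, and P1 and P3 in EF1a at low OSCAR. If the labels of P2 and P3 were exchanged, these meanings would be exchanged too, and the test of a difference of EF1a differences below would not be of EF1a. In the first comparison, 6 of the 8 genes were higher in P1 than in P2 at an adjusted p under 0.01, where 29.1% of all genes were called in either direction and 15.2% in this direction (13.9% in the other). With edgeR the exceptions were Myo7b and Espn, which DESeq2 did call (adjusted p = 0.00189 and 0.00516), so that it called all 8 members, beside 5143 genes. edgeR called Myo7b without both libraries labelled P3 (adjusted p = 0.00438). Against P4, 6 of 8 were higher in P1, with Myo1a and Myo7b the exceptions in edgeR, beside 23.4% of all genes in either direction, 14% in this direction and 9.44% in the other. DESeq2 called 7, Myo1a among them (adjusted p = 0.000735), beside 4528 genes. The members' median log2 fold change was 2.54 and 3.05 in these comparisons, against -0.01 and -0.06 over all genes tested. The counts rest on single libraries, since without P1 replicate 1, P1 replicate 2 or P2 replicate 1 the first was 2, 2 or 1 (1951, 2146 and 1576 genes), while the second was 3 without P1 replicate 1 (833 genes) and 0 without either P4 library, when no gene of the whole table was called.

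In the comparison labelled as one of EF1a at low OSCAR, 4 of 8 genes (Espn, Pls1, Eps8l3 and Krt20) were higher in P1 than in P3, where 15.6% of all genes were called in either direction 7.54% in this direction and 8.01% in the other. The count was 0 without either P1 library or without P3 replicate 2, 1 without either P4 library, 2 without either P5 library, with 0 to 1434 genes of the table called, and 0 in a fit to P1 and P3 alone, in which no gene of the table was called. DESeq2 called 6 members, Vil1 and Ezr added, beside 3582 genes. The mitochondrial share of the libraries labelled P3 was given above, and its part in these differences was not tested. At medium OSCAR, 0 of 8 members and 0% of all genes were called between P5 and P4 with edgeR. All 8 were higher in P5 in the fit, by 0.14 (Myo1a) to 1.36 (Espn, SE 0.53), and in both same-numbered pairs of libraries. The share of all genes with that direction in both pairs was not counted, so the members' count is a description only. Their median was 0.42, against 0.01 over all genes tested. Leaving out single libraries moved the Espn difference between 0.57 and 1.88. Without adjustment 350 genes had a p under 0.05 between P5 and P4, 1 member (Espn) among them, and DESeq2 called 30 genes and 0 members and limma 0 of both. Between P3 and P5, 0 members and 0% of genes were called, with 1587 genes under 0.05 before adjustment and 0 members among them, and DESeq2 called 40 genes and 0 members and limma 0 of both. The test of whether the EF1a difference at low OSCAR differs from that at medium OSCAR, which rests on the same labels, called 0 members, beside 0.81% of all genes, 0.328% with a positive and 0.482% with a negative difference. Espn came nearest, with a difference of differences of -4.79 (SE 0.77, adjusted p = 0.0106), and 6 members and 4655 of all genes had a p under 0.05 before adjustment. DESeq2 called 6 members and 2053 genes in that test and limma 1 member and 585 genes. With the replicate number as a block, edgeR called 1 member and 593 genes in it.

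The members and the enterocyte markers were also set side by side. The members' summed CPM per 100 CPM of enterocyte markers was 55.6 and 77.3 in P1, 24.5 and 37.6 in the libraries labelled P3, 28.7 and 58.2 (P4), 22.4 and 34.8 (P5), and 121 and 130.3 in the libraries labelled P2. In P1 minus P3 the median log2 fold change was 2.06 over the 8 genes and -0.30 over the 11 enterocyte markers, of which 0 were called with edgeR. In P1 minus P2 both were higher in P1, with medians of 2.54 for the 8 genes and 3.86 for the markers, of which 5 were called. The share in P4 replicate 2 was above that in P1 replicate 1. The digestive enzyme gene Sis stood at 1612 and 852 CPM in P1 and at 3644 and 1961 CPM in P5, the reverse of Vil1, while Fabp2, a fatty acid binding protein gene, was highest in P1 as the members were.

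Pairs of the 8 genes were correlated across libraries as a description. Over the 10 libraries the 28 pairs had a median r of 0.899 in log2 CPM (0.52 to 0.989), and over the 8 libraries without P1 a median of 0.736 (-0.166 to 0.955), so that part of the likeness rests on P1. Among the genes nearest to the mean standardised profile of the 7 brush border genes were Slc9a3r1 (r = 0.996 over 10 libraries), which encodes the ezrin-binding scaffold EBP50, Slc6a8 (0.991), Lap3 (0.99) and Klc4 (0.989). Slc9a3r1 had mean levels of 2661, 278, 475, 197 and 334 CPM from P1 to P5. Nearest to Krt20 were Anxa4 (0.99), Optn (0.99), Rhod (0.988), Edf1 (0.987) and Sra1 (0.987). Rhod, a small GTPase gene, had means of 139.6 CPM in P1, 12.8 in P2, 8.79 in P3, 4.42 in P4 and 6.31 in P5.

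Since Vil1 and Pls1 moved most closely together over all 10 libraries, and Krt20 and Espn over the widest ranges, the sequences before their starts are shown with that of Eps8l3. RefSeq windows of 250 bases before a gene start were found for 7 of the 8 members, and each was placed in NCBIM37 by exact match and shortened where that build's annotation already has an exon. Capitals mark matches, on either strand, to CAAAGNNC (an HNF4-type core, present in 15.4% of 32841 RefSeq windows of this length), to the CDX-type letters TTTATNG, present in 9.81%, to a GATA-type core spelled AGATAA, present in 9.99%, and to the TATA box spelled TATAAA, present in 12.4%. An HNF1-type palindrome, in 0.00913% of windows, was searched too. The motifs were chosen after the values were known and the sequences read, and a match is a description, not a site or a cause.
Vil1, chr1:74455708-74455949, plus strand: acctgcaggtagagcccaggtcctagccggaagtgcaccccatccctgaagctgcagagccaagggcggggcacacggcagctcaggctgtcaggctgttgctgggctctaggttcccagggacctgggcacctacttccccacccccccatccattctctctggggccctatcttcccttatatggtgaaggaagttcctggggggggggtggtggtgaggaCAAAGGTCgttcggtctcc
Pls1, chr9:95745731-95745948, minus strand: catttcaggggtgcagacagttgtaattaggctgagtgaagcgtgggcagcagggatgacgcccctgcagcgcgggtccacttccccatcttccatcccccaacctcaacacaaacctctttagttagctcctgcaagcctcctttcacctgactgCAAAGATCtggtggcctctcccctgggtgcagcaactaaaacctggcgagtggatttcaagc
Eps8l3, chr3:107679898-107680147, plus strand: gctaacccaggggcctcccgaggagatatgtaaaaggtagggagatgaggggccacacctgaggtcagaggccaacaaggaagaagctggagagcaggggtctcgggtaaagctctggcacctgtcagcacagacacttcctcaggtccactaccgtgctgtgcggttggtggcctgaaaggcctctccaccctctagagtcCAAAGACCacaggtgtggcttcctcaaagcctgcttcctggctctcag
Espn, chr4:151503035-151503284, minus strand: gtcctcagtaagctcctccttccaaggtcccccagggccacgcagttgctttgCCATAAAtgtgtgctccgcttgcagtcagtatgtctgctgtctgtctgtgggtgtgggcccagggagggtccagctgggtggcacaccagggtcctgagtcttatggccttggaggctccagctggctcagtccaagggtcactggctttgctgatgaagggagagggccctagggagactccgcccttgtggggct
Krt20, chr11:99299468-99299717, minus strand: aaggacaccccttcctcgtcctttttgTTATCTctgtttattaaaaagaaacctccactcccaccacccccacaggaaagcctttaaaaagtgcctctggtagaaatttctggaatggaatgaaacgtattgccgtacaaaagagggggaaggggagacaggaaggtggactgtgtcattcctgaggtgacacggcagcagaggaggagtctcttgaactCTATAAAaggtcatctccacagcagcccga

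Vil1, Pls1 and Eps8l3 each hold the core CAAAGNNC, ending 20, 87 and 41 bases before the RefSeq start. Krt20 holds TATAAA ending 24 bases before its start, within a match to TTTATNG on the other strand, and a GATA-type match farther up. The Espn window shown is that of the last of 3 RefSeq starts, with a CDX-type match, and the windows of its other 2 starts and those of Ezr and Myo1a hold none of these letters. Gene-level counts do not tell which Espn start was used. Krt20 had the lowest GC share of the 9 windows searched, 48%, against a median of 52.4% over all windows, and Ezr the highest, 67.2%.

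The wider brush border was covered by 49 further genes in 5 lists, of which 47 were tested and Espnl and Fscn1 had too few counts. Among them 21 differed among the 5 populations (edgeR adjusted p under 0.01, background 36.3%). Against P4, 14 of 47 were called higher and 2 lower in P1 (14% and 9.44% of all genes), and against P2, 10 were called higher and 8 lower (15.2% and 13.9% of all genes), with medians of 0.71 and 0.66 on the log2 scale. None of the called directions turned under DESeq2 size factors or library size alone.

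Among 10 tested actin regulators, Eps8, the capping and bundling protein of microvillar tips, was higher in P1 than in P2 (1.69, SE 0.37, edgeR adjusted p = 0.00557) and P4 (2.91, SE 0.39, adjusted p = 0.00116), as was Capzb, a filament capping protein gene. Vill, a villin relative, went the other way, with mean levels of 24.7 CPM in the libraries labelled P2 and 1.01 CPM or less in the others (P1 minus P2, -4.59, SE 0.55, adjusted p = 0.00041). Of the 9 linkers and scaffolds, Slc9a3r1, Clic5 and Stk10 were higher in P1 than in both gates, and Pdzk1 and Msn than in P4. Slk, of the same list, was lower in P1 than in P2 (log2 fold change -1.34, SE 0.30, edgeR adjusted p = 0.00655). Msn (moesin) is also expressed by leukocytes, whose markers were highest in P1 and whose part in its level was not tested. Pdzk1, a PDZ scaffold, had means from 707 CPM in P1 to 9.76 CPM in P4. Slc9a3r2, the paralog of the ezrin scaffold, was instead highest in the libraries labelled P2, at 34.3 CPM against 2.24 CPM or less elsewhere.

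Of 10 further myosins, Myo1e and Myo5b were higher in P1 than in P4, while Myo1c was highest in the libraries labelled P2 and lower in P1 than there (log2 fold change -1.42, SE 0.19). Myo6, Myh9, Myh14 and Myo15b did not pass among the 5 populations. In the adhesion complex that Myo7b serves, the scaffold genes Ush1c and Anks4b and the myosin light chain gene Calml4 rose in P1 over both gates, by 1.53, 2.98 and 2.47 over P2, and so did Tmigd1. Its protocadherin genes did not pass, with Cdhr2 at mean levels of 348, 565, 471, 279 and 482 CPM and Cdhr5 at 448, 679, 539, 291 and 436 CPM from P1 to P5. Among 11 spectrin, keratin and plakin genes, none was called higher in P1 than in P4. Krt7 and Krt18 were highest in the libraries labelled P2, with Krt18 at 1281 CPM there and 222 CPM in P1, and Krt8 did not pass. Krt19 had its lowest means in the libraries labelled P2 and P1, 404 and 642 CPM, and its highest, 2150 CPM, in those labelled P3.

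**Figure D4:**
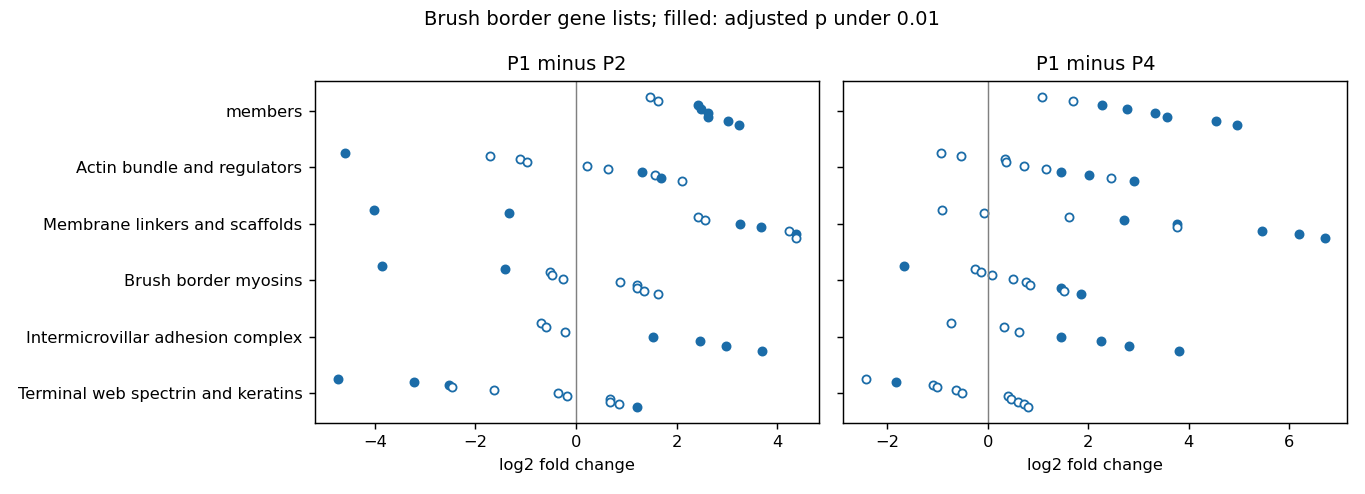
Log2 fold changes (x axis) of the 8 members and of the 47 tested genes of 5 brush border lists, P1 minus P2 on the left and P1 minus P4 on the right; each point is a gene and filled points have an adjusted p under 0.01. All members lie right of 0 in both, while 8 list genes on the left and 2 on the right are filled and negative. The comparisons share the P1 libraries.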

How the data were processed

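The 10 deposited tables hold raw read counts per gene, which the authors made with FastQC 0.11.5, TopHat2 2.1.0 (mm9), Bowtie and HTSeq 0.11.2 (submitters' processing notes), without regard to strand and without reads of several alignments. Samples were grouped by the population in their titles, while the names of the deposited tables carry other population numbers. HTSeq's summary lines and 1 unnamed row per table (at most 0.000596% of the gene counts) were left out, and 206 rRNA gene names were removed as in the study. Of the row names, 33643 are in the GENCODE annotation of NCBIM37, used for positions and exon lengths. edgeR 4.0.16 (R 4.3.3) filtered with filterByExpr, scaled by TMM and fitted 5 population means over the 10 libraries (5 residual degrees of freedom). Quasi-likelihood tests were adjusted by Benjamini-Hochberg over all 13706 genes and called under 0.01, and SEs were derived from F. Log2 CPM used a prior count of 2. Alternatives used DESeq2 1.42.0, limma 3.58.1, other scalings, filters, thresholds and subsets, and leaving out libraries. The fit was tested on simulated data. Figures used matplotlib 3.10.9. Members, lists, markers and tests were chosen with earlier results of these data known. Named genes are the members, genes nearest to each profile, and listed genes with large or small ranges.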

Additional observations from a re-analysis of the deposited data

How the results depend on the processing

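Every member stayed higher in P1 than in P2, P3 and P4 under all alternatives run, with 0 of 176, 0 of 168 and 0 of 176 values reversed. Of the other differences 17 of 168 (P3 minus P5), 6 of 176 (P4 minus P2) and 5 of 176 (P5 minus P4) turned sign, 0 of them called. With library size alone, which brings the median of all genes to -0.92 (P3 minus P5), 1.07 (P4 minus P2), 0.43 (P1 minus P2), 0.39 (P1 minus P3) and -0.75 (P1 minus P4), P3 minus P5 became -0.90 for Espn, -0.40 for Ezr, -0.47 for Krt20, -0.64 for Myo1a, -0.84 for Pls1 and -0.76 for Vil1, all smaller falls than the median, and P4 minus P2 became 0.27 for Ezr, 0.78 for Pls1 and 0.98 for Vil1, all under the median. With at least 10 counts in 4 libraries, Eps8l3 P3 minus P5 became 0.0069. The cause was not tested.

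Leaving out each library, values that turned ranged for P3 minus P5 from -0.47 to 0.37 (Eps8l3), -0.44 to 0.95 (Espn), -0.15 to 1.31 (Ezr), -0.24 to 0.96 (Myo1a), -1.02 to 0.42 (Myo7b), -0.31 to 0.65 (Pls1) and -0.35 to 0.84 (Vil1), for P5 minus P4 from -0.025 to 0.69 (Eps8l3), -0.036 to 0.89 (Ezr), -0.28 to 0.48 (Myo1a) and -0.0596 to 0.56 (Myo7b), and for P4 minus P2 from -0.94 to 0.80 (Pls1) and -0.53 to 0.46 (Vil1). Without P3 replicate 1, P1 minus P3 was highest for Ezr (2.97), Krt20 (3.91), Vil1 (2.72), Myo1a (1.76) and Myo7b (1.78). Members called ranged from 3 to 8 for any difference, 1 to 7 for P1 minus P2, 0 to 6 for P1 minus P4, 0 to 4 for P1 minus P3 and 0 to 1 for P4 minus P2. The lone library left was then assumed to vary like the other groups. In each comparison counted, fewer genes of the whole table were called at the low end of the members' range than at the high end. The ranges therefore do not describe the members alone.

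Without a filter on low counts, 7 members were called for P1 minus P3, 2 for P4 minus P2, 1 for P5 minus P4 and 6 for the difference of EF1a differences, beside 4005, 3500, 194 and 2298 of 21996 genes. With library size alone 4 were called for P4 minus P2 beside 3159 genes, and with only P1 and P3 in the fit 0 members and 0 genes for P1 minus P3. With only the populations compared in the fit, 4 in place of 6 were called for P1 minus P2 (3756 genes) and 7 in place of 6 for P1 minus P4 (3579 genes). The difference of EF1a differences called 5 members at an adjusted p under 0.05 (2370 genes), 6 with the DESeq2 test (2053 genes), and 1 each with DESeq2 size factors (362 genes), library size alone (58), limma voom (585) or no mitochondrial genes (375).

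With the replicate block, 1 member was called for the difference of EF1a differences, and 5 in place of 4 for P1 minus P3 (593 and 2597 genes). The other counts of members did not change. The genes called did, such as from 3989 to 4519 for P1 minus P2 and from 3214 to 3881 for P1 minus P4. Deviations of same-numbered libraries correlated at -0.0598 to 0.554 (9 of 10 pairs over 0.1), and no label ties the numbers to an animal. P5 lay above P4 in both same-numbered pairs for 8 of 8 members, with no such count over all genes. The turned signs of P5 minus P4 come from leaving out libraries. The alternatives without both libraries labelled P3 and with unshared exonic bases as length were chosen after seeing the data. With the longest transcript as length, P1 levels per kilobase moved beyond 1 SD for Espn (95.1) and Ezr (858), and with unshared bases for Eps8l3 (490.5).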

Other observations

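Some listed genes of the same structure had their highest level outside P1. The keratin gene Krt7 stood at a mean of 368 CPM in the libraries labelled P2 and 39.2 CPM in P1.

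Each population has 2 libraries, and calls rest on the spread of all populations in the fit. Gene-level counts do not separate transcripts or proteins. Counts of RNA say nothing of microvillar length or of where a protein lies.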
